A study of Mus musculus with 28 samples.

Results

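The AMPA and kainate receptor subunits are the 4 genes *Gria1* to *Gria4* and the 5 genes *Grik1* to *Grik5*, chosen by gene symbol, which makes 9 of the 23038 genes in the deposited tables. Each symbol occurred once in the tables. Expression was measured by RNA-seq of polyadenylated RNA in 28 libraries of mouse brain on a C57BL/6J (BL6 in the labels) background: 12 of embryonic midbrain (E18.5, 6 per genotype), 8 of midbrain and 8 of cortex at postnatal day 21 (P21, 4 per genotype in each region). The genotypes are Nova1 hu/hu and its littermate control, Nova1 wt/wt. Nova1 hu/hu mice carry a germline CRISPR/Cas9 knock-in that replaces an isoleucine of the RNA-binding splicing regulator NOVA1 with the valine of modern humans, together with silent changes made for genotyping. Nova1 wt/wt mice carry the unedited gene. The study compared the genotypes within each age and region, and the design also allows the ages to be compared within midbrain and the regions within P21. No library is labelled with the sex of the mouse, a litter or a sequencing batch, so a batch that coincided with age or region cannot be told apart from it.

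Both families are glutamate-gated ion channels built of 4 subunits each. AMPA receptors carry most fast excitatory transmission in the brain, and *Gria2* (GluA2) makes a receptor that contains it nearly impermeable to calcium once its transcript is edited. Kainate receptors act on both sides of the synapse, where *Grik1*, *Grik2* and *Grik3* (GluK1 to GluK3) can form channels on their own while *Grik4* and *Grik5* (GluK4 and GluK5) bind agonist with high affinity and need one of the former to reach the surface. Auxiliary proteins, such as the transmembrane AMPA receptor regulatory proteins (TARPs, *Cacng* genes) and the NETO proteins of kainate receptors, set trafficking and gating.

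Depth ranged from 18550922 to 45134998 counts per library, and every member had at least 534 counts in every library. Nova1 itself, whose transcript level the knock-in was not designed to change, had a mean of 116 TPM (counts per base of exon, scaled to the same total in each library) in both genotypes at E18.5, so its level does not check the genotype labels. The labelled tissues carried their markers: the summed TPM of 6 midbrain markers reached 85.6 to 104 at E18.5, 153 to 190.0 in midbrain at P21 and 10.4 to 20.7 in cortex. That of 5 cortical markers was 204 to 232 in cortex against 3.77 to 5.21 in P21 midbrain and 16.6 to 25.3 in E18.5 midbrain. Markers of neighbouring tissue were present as well. In the cortex libraries 3 of 3 striatal markers were present, with a summed TPM of 551 to 685 against 36.1 to 48.0 in P21 midbrain, and in the P21 midbrain libraries 4 of 4 hypothalamic neuropeptides were present, with 327 to 419 TPM against 1.49 to 32.9 in cortex. Their part in the differences between regions was not tested.

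The 9 genes share a coding stretch at the tip of the pore loop, in which 1 codon decides whether the channel wall carries a glutamine or, after RNA editing by ADAR2 (*Adarb1*), an arginine. In *Gria2*, *Grik1* and *Grik2* this codon is known to be edited, and it is shown here because the level of *Adarb1* differed strongly between the tissues below. The stretches come from GENCODE M21 transcripts on GRCm38, read 5′ to 3′ on the coding strand, with the glutamine codon in capitals:
Gria1: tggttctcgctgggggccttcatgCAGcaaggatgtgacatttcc
Gria2: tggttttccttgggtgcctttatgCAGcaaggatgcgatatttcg
Gria4: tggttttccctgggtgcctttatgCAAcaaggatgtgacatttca
Grik1: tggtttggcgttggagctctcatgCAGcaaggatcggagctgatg
Grik2: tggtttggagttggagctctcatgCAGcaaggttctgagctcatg
Grik5: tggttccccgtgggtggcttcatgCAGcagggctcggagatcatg
The genomic codon was a glutamine codon in all 9 genes, CAA in *Gria4* and CAG in the other 8. In *Gria2* it lies at chr3:80706911-80706913 (minus strand, exon 11 of 16), in *Grik1* at chr16:87940542-87940544 (minus strand, exon 12 of 17) and in *Grik2* at chr10:49244329-49244331 (minus strand, exon 12 of 16). In *Gria1* it lies at chr11:57243094-57243096 (plus strand, exon 11 of 16), in *Gria4* at chr9:4464137-4464139 (minus strand, exon 12 of 17) and in *Grik5* at chr7:25022497-25022499 (minus strand, exon 15 of 20). The printed stretches of *Grik1* and *Grik2* cross an exon junction. Over the 45 bases, *Gria2* and *Gria3* shared 42 and *Grik1* and *Grik2* shared 41, while *Grik3* and *Grik4* shared 25, the fewest of any pair. The deposited values count reads per gene, so they hold no measure of editing or of splice forms at this codon.

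The genes are long and scattered over 8 chromosomes. On GRCm38 the AMPA subunits lie at chr11:57011571-57330244 (*Gria1*), chr3:80681450-80804227 (*Gria2*), chrX:41400819-41678601 (*Gria3*) and chr9:4417893-4796234 (*Gria4*), and the kainate subunits at chr16:87895901-88290863 (*Grik1*), chr10:49093680-49790161 (*Grik2*), chr4:125490259-125714173 (*Grik3*), chr9:42518182-42945000 (*Grik4*) and chr7:25009849-25075694 (*Grik5*). Their exons overlap those of no other gene except small non-coding RNAs of at most 111 bases inside *Gria2*, *Gria3*, *Gria4* and *Grik4*. Levels are given below as TPM, which divides counts by the exon length in the deposited tables. That length is shorter than the union of GENCODE M21 exons for some members, with 5508 against 13246 bases for *Grik2*, 10461 against 15548 for *Gria2* and 3488 against 5962 for *Grik4*, so levels of different genes are less certain than changes of 1 gene between libraries.

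In E18.5 midbrain the most abundant member was *Grik5*, with a mean of 236 ± 29.5 TPM (SD, n = 12 libraries of both genotypes), above 97.1% of all genes listed. *Gria2* followed with 169 ± 9.77 TPM, and each library had more *Grik5* than *Gria2*. *Gria4* (85.8 ± 3.64) and *Gria1* (83.9 ± 4.97) had overlapping ranges, with *Gria4* the higher in 8 of 12 libraries. *Grik2* had 62.2 ± 5.71 TPM, and *Grik4* (39.2 ± 3.74), *Grik3* (36.8 ± 2.42) and *Grik1* (32.1 ± 2.66) formed a group in which neighbours overlapped. *Gria3* was lowest with 21.5 ± 1.01 TPM, still above 65.2% of all genes.

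In P21 midbrain *Grik5* (140.3 ± 3.96 TPM, n = 8) and *Gria1* (139 ± 3.96) could not be ordered, as each was the higher in 4 of 8 libraries. *Gria4* (80.3 ± 4.07) exceeded *Gria2* (68.6 ± 4.06) in 8 of 8 libraries although their ranges overlapped. *Grik4* (36.4 ± 2.50), *Gria3* (31.6 ± 1.1) and *Grik2* (29.2 ± 1.63) had ranges that overlapped from one to the next, and *Grik3* (20.8 ± 0.83) and *Grik1* (12.9 ± 1.12) were lowest.

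In P21 cortex the order was clearer, with *Grik5* at 368 ± 15.5 TPM (n = 8), *Gria1* at 208 ± 4.42 and *Gria2* at 178 ± 5.15, none of which overlapped. *Gria3* had 67.7 ± 2.83 TPM. *Gria4* (45.0 ± 2.01) and *Grik4* (43.8 ± 3.17) overlapped, as did *Grik2* (31.9 ± 1.99) and *Grik3* (28.4 ± 1.94), and *Grik1* was lowest with 8.13 ± 0.226 TPM. With GENCODE M21 exon lengths in place of the deposited ones, a choice made after seeing the data, the order changed in all 3 tissues. *Grik5* stayed first in E18.5 midbrain and P21 cortex but fell behind *Gria1* in P21 midbrain (105 against 135 TPM). At E18.5 *Gria1* passed *Gria4*, and *Grik2* went from rank 5 to rank 7 of 9, behind *Grik3* and *Grik1*, with *Grik4* at rank 8. In P21 midbrain *Gria3* passed *Grik4*, and *Grik2* became the lowest member (12.1 TPM, against 12.6 for *Grik1*). In P21 cortex *Grik3* went from rank 8 to rank 6, ahead of *Grik4* and *Grik2*.

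**Figure D1:**
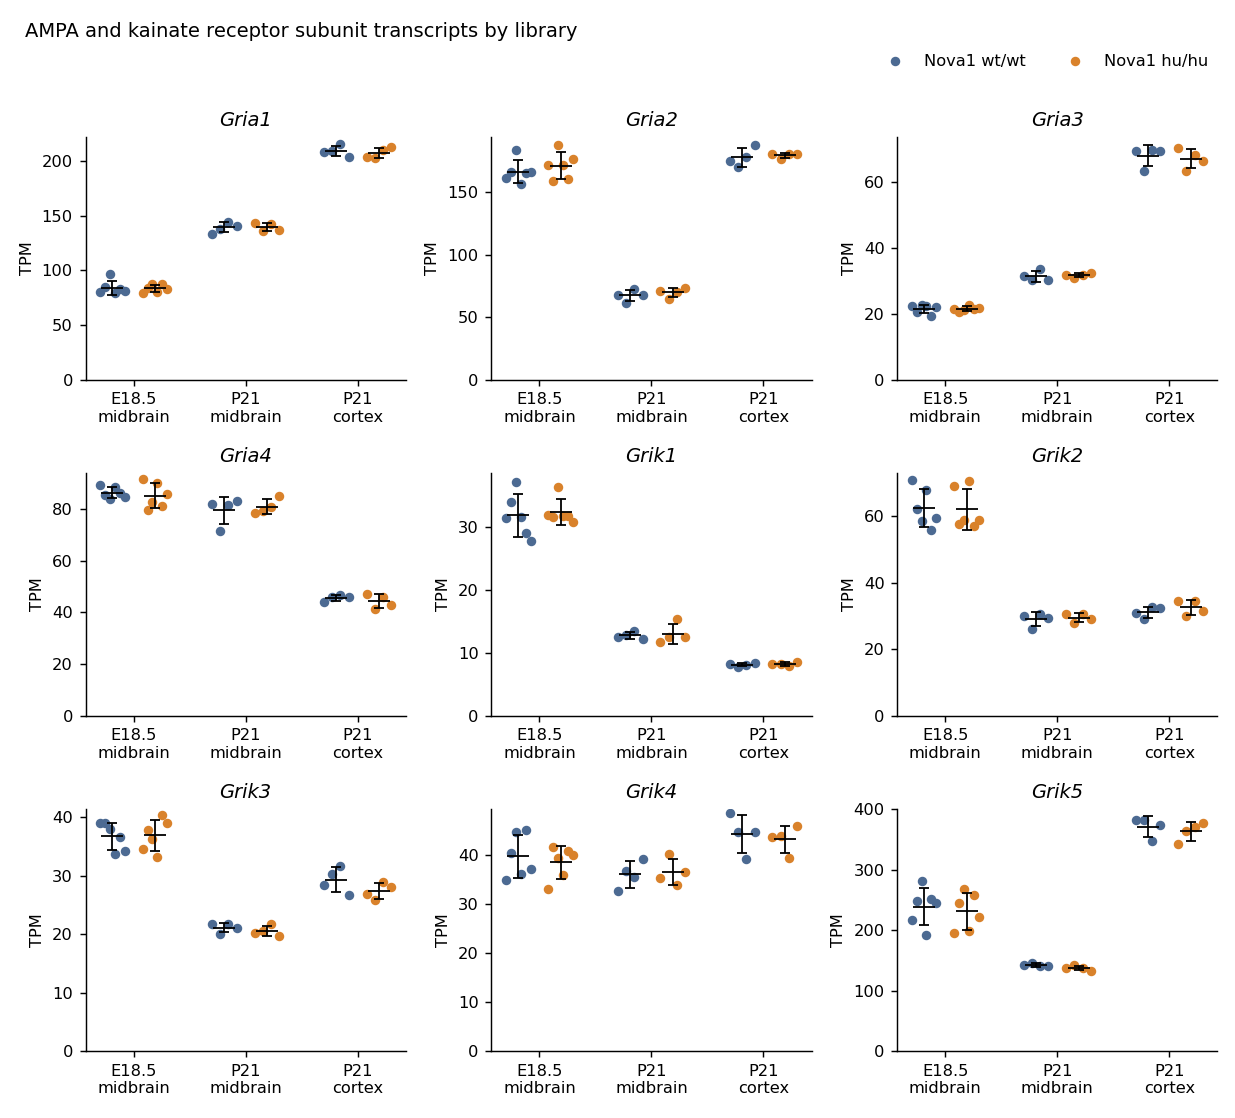
Level in TPM (y axis, linear from 0) of each of the 9 subunits in each library, by age and region (x axis) and genotype (blue, Nova1 wt/wt and orange, Nova1 hu/hu). Horizontal marks are means and error bars are SDs over 6 libraries at E18.5 and 4 at P21; the genotypes overlap in each panel, while *Gria2* has a mean of 169 TPM at E18.5, of 68.6 in midbrain at P21 and of 178 in cortex.

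Between E18.5 and P21 the subunit make-up of the midbrain changed, with *Gria1* and *Gria3* higher and *Gria2*, *Grik1*, *Grik2*, *Grik3* and *Grik5* lower at P21. *Gria4* was also called higher, but barely, and its sign depended on the scaling. Of the 9 members 3 were called higher and 5 lower by edgeR's quasi-likelihood test (p under 0.05 and adjusted p under 0.1 over all 16330 genes tested), against 42.3% of all genes called higher and 43.1% called lower. With most genes called, a call alone says little here, and the sizes carry more: 15.9% of genes were called at least 2-fold higher and 14.7% at least 2-fold lower, and among the members none and 2 were. The members' median log2 fold change was −0.54, beside −0.02 over all genes tested. The fits scale libraries with TMM factors, which correct for a few abundant transcripts taking a share of the reads. TPM does not, so the TPM values below do not give the fitted folds. With library totals only, the median of all genes was −0.17, *Gria1* changed by 0.78 and *Gria2* by −1.25. Relative to the median of all genes, *Gria1* changed by 0.95 and *Gria2* by −1.08 under both scalings. In these bulk tissues fewer cells of a type and less RNA per cell cannot be told apart. The summed TPM of 4 oligodendrocyte markers was 54.8 to 76.5 in the E18.5 libraries and 18742 to 21202 in those of P21 midbrain, and that of 4 neuronal markers 2684 to 2990 and 3373 to 3742. It was 310 to 458 and 655 to 706 for 4 astrocyte markers, and 27.1 to 47.4 and 120 to 135 for 3 microglial markers. For 3 neural progenitor markers it was 126 to 146 and 25.9 to 33.1, for 5 cortical markers 16.6 to 25.3 and 3.77 to 5.21. For 4 hypothalamic neuropeptides it was 43.4 to 119 and 327 to 419. Their part in the members' changes was not tested.

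*Gria2*, the calcium-limiting subunit, had between 157 and 188 TPM at E18.5 (median 166) and between 61.6 and 73.7 at P21 (median 68.9). All 12 libraries at E18.5 were above all 8 at P21. The fitted change was a log2 fold change of −1.10 (SE 0.04, adjusted p = 2.55e-18), which is 2.14-fold lower at P21, and 27.0% of genes changed by more.

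*Gria1*, the subunit that recruits receptors to the synapse during plasticity, went the other way. Its TPM was 78.9 to 96.8 at E18.5 (median 82.9) and 134 to 144 at P21 (median 139.7), again without overlap, with a log2 fold change of 0.94 (SE 0.03, adjusted p = 4.48e-19) or 1.92-fold. *Gria3* rose from 19.3 to 22.8 TPM (median 21.7) to 30.2 to 33.6 (median 31.6), a log2 fold change of 0.75 (SE 0.04, adjusted p = 1.93e-15).

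*Gria4*, a subunit with fast kinetics, was nearly level. Its TPM was 79.7 to 91.6 at E18.5 (median 85.5) and 71.7 to 85.3 at P21 (median 81.1), so the ranges overlapped. Its fitted log2 fold change was 0.11 (SE 0.04, adjusted p = 0.0164), called higher, although its mean TPM was slightly lower at P21. The sign depended on the scaling: without TMM factors the median of all genes moved to −0.17 and *Gria4* to −0.05 (adjusted p = 0.229). Relative to the median of all genes its change was 0.12 under both scalings.

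Among the kainate subunits that form channels on their own, *Grik1* fell most. It had 27.8 to 37.1 TPM at E18.5 (median 31.6) and 11.6 to 15.3 at P21 (median 12.5), a log2 fold change of −1.12 (SE 0.05, adjusted p = 8.74e-16) or 2.17-fold lower. *Grik2* fell from 55.7 to 70.8 TPM (median 59.1) to 26.0 to 30.6 (median 29.7), with a log2 fold change of −0.89 (SE 0.06, adjusted p = 4.74e-13). *Grik3* fell from 33.2 to 40.4 TPM (median 37.2) to 19.7 to 21.8 (median 20.8), with a log2 fold change of −0.62 (SE 0.04, adjusted p = 1.59e-13). In each of these 3 genes all 12 libraries at E18.5 were above all 8 at P21.

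Of the high-affinity subunits, *Grik5* fell from 192 to 281 TPM (median 246) to 133 to 146 (median 141), a log2 fold change of −0.54 (SE 0.05, adjusted p = 1.52e-09). *Grik4* had 33.2 to 45.1 TPM at E18.5 (median 39.9) and 32.8 to 40.3 at P21 (median 36.2). Its log2 fold change was 0.10 (95% interval −0.01 to 0.20, adjusted p = 0.0817), which was not called, and its sign also turned without TMM factors (−0.06). It was called higher in other fits, for example with the replicate number as a block (0.13, adjusted p = 0.0123).

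**Figure D2:**
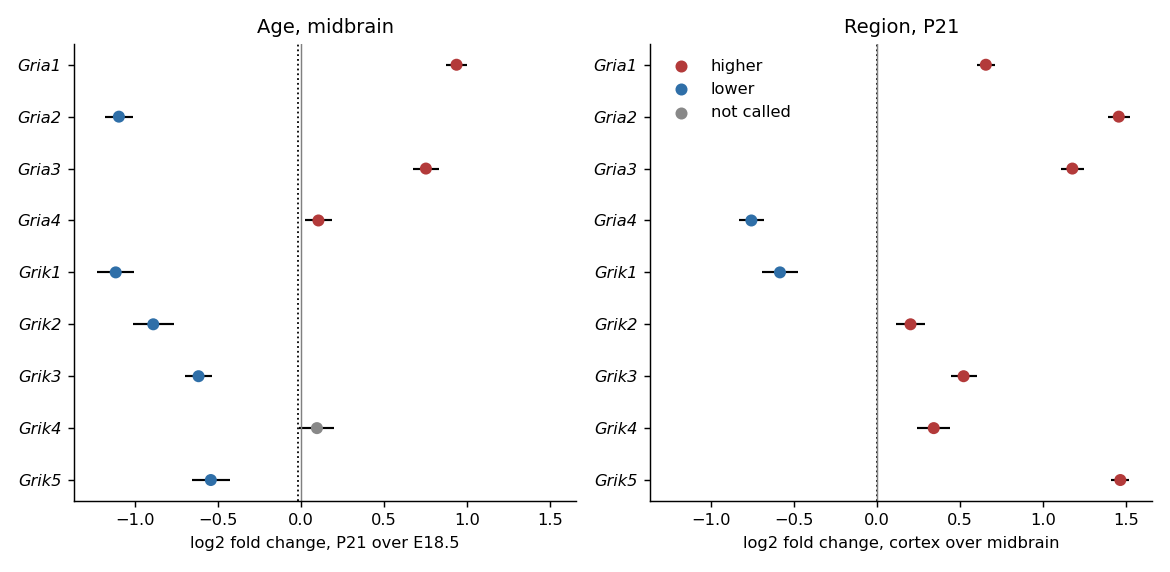
Fitted log2 fold change (x axis) of each subunit for P21 over E18.5 in midbrain (left) and for cortex over midbrain at P21 (right), with 95% intervals as bars and red, blue or grey points for genes called higher, lower or not called. The dotted line is the median of all genes tested; *Gria2* lies at −1.10 in the left panel and at 1.46 in the right.

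The share of each subunit in the summed TPM of its family showed the same shift within AMPA transcripts. *Gria2* made up 46.9 ± 1.17% of AMPA transcripts at E18.5 (n = 12, range 45.2 to 49.6%) and 21.4 ± 0.662% in P21 midbrain (n = 8, range 20.4 to 22.5%), while *Gria1* went from 23.3 ± 1.08% to 43.6 ± 1.21%. The ratio of *Gria2* to *Gria1* was 1.84 to 2.16 in the E18.5 libraries and 0.446 to 0.539 in the P21 midbrain libraries. *Gria4* kept about the same share, 23.9 ± 1.26% and 25.1 ± 0.888%, with overlapping ranges.

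In the kainate family *Grik5* held its share, with 57.9 ± 3.14% at E18.5 and 58.6 ± 1.003% in P21 midbrain, since its fall was close to that of the family as a whole. The summed kainate TPM went from 362 to 459.6 at E18.5 to 231 to 243 at P21, and *Grik4* gained in share from 9.66 ± 0.564% to 15.2 ± 0.992%. The summed AMPA TPM was 343 to 387 and 302 to 332, a smaller change. Its direction depends on the scaling, as TPM uses no TMM factors. In mean TMM-scaled per-kilobase values *Gria2* fell from 49.1 to 23.2. That fall was outweighed by the rises of *Gria1* (24.4 to 47.2), *Gria3* (6.27 to 10.7) and *Gria4* (25.0 to 27.1). The ratio of AMPA to kainate transcripts was therefore 0.817 to 0.998 at E18.5 and 1.25 to 1.42 in P21 midbrain, without overlap. The level of this ratio depends on the exon lengths of different genes, and it was computed with the deposited lengths only. With GENCODE M21 exon lengths the share of *Gria2* came to 38.5% in the E18.5 libraries and 16.2% in those of P21 midbrain, lower levels with the same direction.

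**Figure D3:**
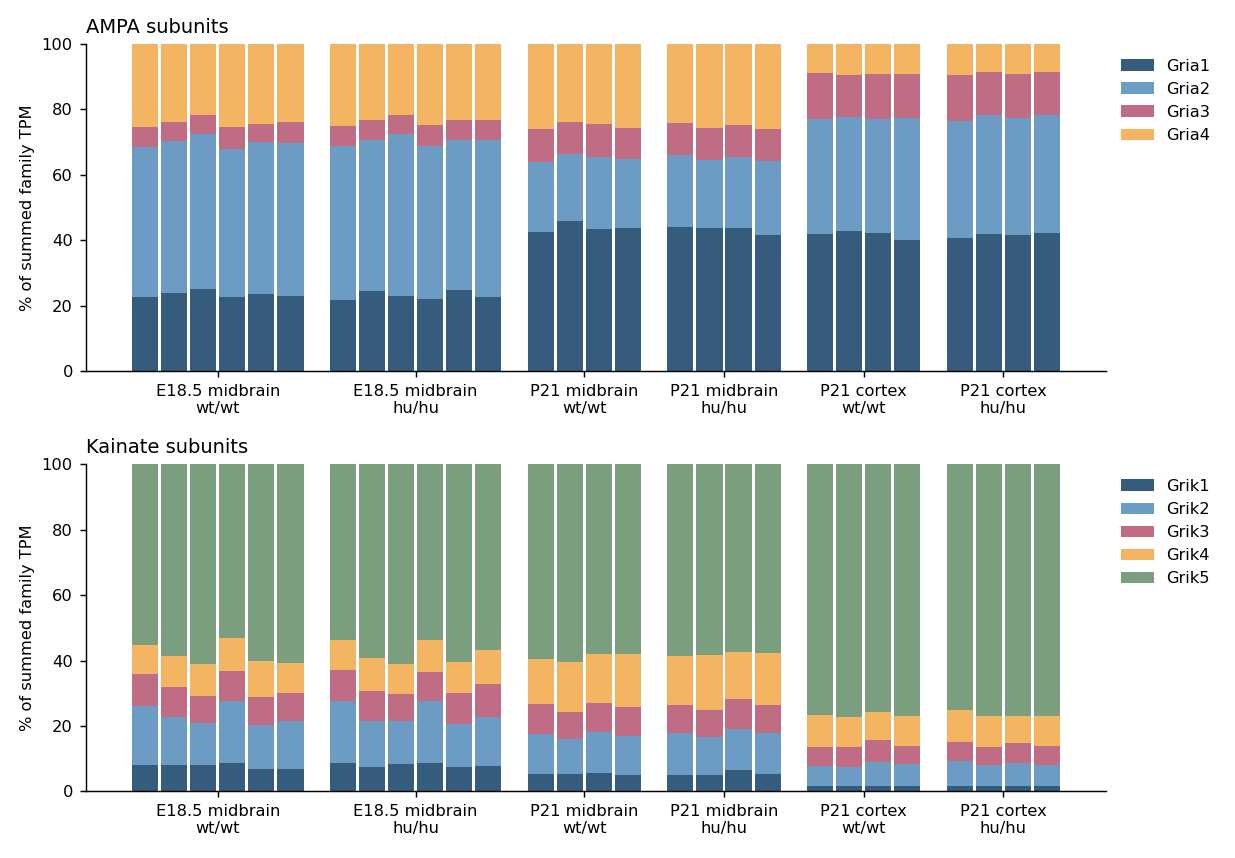
Share of each subunit in the summed TPM of its family (y axis, percent), one stacked bar per library, grouped by age, region and genotype, for AMPA subunits (top) and kainate subunits (bottom). *Gria2* (light blue, top) takes 45.2 to 49.6% of the bars at E18.5 and 20.4 to 22.5% in P21 midbrain, and *Grik5* (green, bottom) 75.2 to 77.4% in P21 cortex.

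The E18.5 libraries were not uniform, and for 5 of the 9 subunits the libraries numbered 1 and 4 of both genotypes stood apart from the other 8 without overlap, a pattern noticed in the values. *Grik2* was highest in these 4 libraries, with 69.1 and 70.5 TPM in Nova1 hu/hu and 70.8 and 67.9 in Nova1 wt/wt, against 55.7 to 62.1 in the other 8. *Gria4* was highest in them too, with 88.4 to 91.6 TPM against 79.7 to 86.4. *Grik5* was lowest in the same 4 libraries, with 196.0 and 199.6 TPM in Nova1 hu/hu and 217 and 192 in Nova1 wt/wt, against 223 to 281 in the others. *Grik4* was 33.2 to 36.3 TPM in these 4 and 37.2 to 45.1 in the others, and *Gria1* 78.9 to 80.4 and 81.3 to 96.8. The ranges of *Gria2*, *Gria3*, *Grik1* and *Grik3* overlapped. Deviations from the group means were correlated over all 28 libraries, as a description of libraries that share replicate numbers. For *Grik2* r was −0.75 with *Grik4*, −0.74 with *Grik5* and 0.74 with *Gria4*. For *Grik5* it was 0.71 with *Gria1* and 0.66 with *Grik4*. These pairs were chosen from the same values and are no further evidence for the split. The 4 libraries had 18550922 to 21016602 counts each against 20985852 to 35047494 counts in the others. Their summed TPM was lower without overlap for 3 microglial markers (27.1 to 31.96 against 32.9 to 47.4) and 4 oligodendrocyte markers (54.8 to 61.3 against 62.6 to 76.5). With overlap, it lay lower for 4 astrocyte markers (310 to 339 against 321 to 458) and 2 oligodendrocyte precursor markers (41.7 to 46.8 against 45.2 to 64.7), and higher for 5 cortical markers (21.7 to 25.3 against 16.6 to 22.8). The part of depth, of these cells or of cortical tissue in the split was not tested.

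At P21 the cortex had more of most subunits than the midbrain, with *Gria2*, *Gria3* and *Grik5* showing the largest differences and *Gria4* and *Grik1* lower. Of the 9 members 7 were called higher in cortex and 2 lower, against 37.6% and 37.9% of the 16345 genes tested. At least 2-fold higher were 3 members and at least 2-fold lower none, against 7.59% and 7.82% of genes. The members' median log2 fold change was 0.52, beside −0.00036 over all genes. The summed TPM of 4 neuronal markers was 3932 to 4265 in cortex and 3373 to 3742 in midbrain, and that of 4 oligodendrocyte markers 5385 to 6089 and 18742 to 21202. It was 511 to 590 and 655 to 706 for 4 astrocyte markers, and 159 to 192 and 120 to 135 for 3 microglial markers. Their part in these differences, like that of the striatal and hypothalamic transcripts above, was not tested.

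*Grik5* had 343 to 383 TPM in the 8 cortex libraries (median 372) and 133 to 146 in the 8 midbrain libraries (median 141). The log2 fold change was 1.47 (SE 0.03, adjusted p = 9.73e-23), 2.76-fold higher in cortex, and 8.31% of genes differed by more. *Gria2* was close behind with 169.9 to 188 TPM (median 179) against 61.6 to 73.7 (median 68.9), a log2 fold change of 1.46 (SE 0.03, adjusted p = 2.93e-21) or 2.74-fold. *Gria3* had 63.5 to 70.5 TPM (median 68.9) against 30.2 to 33.6 (median 31.6), a log2 fold change of 1.18 (SE 0.03, adjusted p = 2.88e-19). In all 3 genes the lowest cortex library was far above the highest midbrain library.

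*Gria1* had 203 to 215 TPM in cortex (median 209) against 134 to 144 in midbrain, a log2 fold change of 0.66 (SE 0.03, adjusted p = 1.34e-16). *Gria4* was the AMPA subunit with more transcript in midbrain, with 71.7 to 85.3 TPM there (median 81.1) and 41.4 to 47.1 in cortex (median 46.0), a log2 fold change of −0.76 (SE 0.04, adjusted p = 5.89e-15). *Gria3* and *Gria4* thus stood in opposite order, with 1.38 to 1.58 times as much *Gria3* as *Gria4* in cortex libraries and 0.365 to 0.422 times in midbrain libraries.

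*Grik1* was the kainate subunit with more transcript in midbrain, with 11.6 to 15.3 TPM (median 12.5) against 7.77 to 8.51 in cortex (median 8.14), a log2 fold change of −0.58 (SE 0.05, adjusted p = 5.22e-10). *Grik3* (0.52, SE 0.04, adjusted p = 1.95e-11) and *Grik4* (0.34, SE 0.05, adjusted p = 9.48e-07) were moderately higher in cortex. *Grik2* had 28.9 to 34.6 TPM in cortex and 26.0 to 30.6 in midbrain, which overlapped, and a log2 fold change of 0.20 (SE 0.04, adjusted p = 0.00017). In the kainate family *Grik5* made up 76.6 ± 0.773% of transcripts in cortex (n = 8) against 58.6 ± 1.003% in midbrain, and *Grik1* 1.70 ± 0.0741% against 5.36 ± 0.471%. In the AMPA family *Gria2* made up 35.7 ± 0.750% in cortex and *Gria1* 41.7 ± 0.871%.

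The genotypes did not differ detectably in any member. None of the 9 was called at E18.5 or in either region at P21, and 0% of the 15540, 15972 and 15767 genes tested were called. The study's own edgeR analysis, at the same thresholds, reported *Gkn3*, which is not a member, as lower in Nova1 hu/hu in P21 midbrain. Over all genes, 201, 426 and 450 had an unadjusted p under 0.05, and no member was among them. DESeq2 called 0, 1 and 0 genes in the 3 comparisons, and edgeR with same-numbered libraries paired by a replicate block called 0, 4 and 0. No member was among them.

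At E18.5 the members' log2 fold changes, Nova1 hu/hu over Nova1 wt/wt, ran from −0.05 for *Grik5* to 0.04 for *Gria2*. No 95% interval of a member reached below −0.22 or above 0.16, so differences larger than 0.860-fold or 1.12-fold lay outside all of them. *Gria2* had 159 to 188 TPM in Nova1 hu/hu (median 172) and 157 to 184 in Nova1 wt/wt (median 165), and *Grik5* had 196 to 268 (median 234) and 192 to 281 (median 247). Both pairs of ranges overlapped nearly completely.

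In P21 midbrain the changes ran from −0.05 (*Grik5*) to 0.06 (*Gria2*), with intervals between −0.13 and 0.20. *Grik5* had 138.5, 142.0, 137.2 and 133.3 TPM in Nova1 hu/hu replicates 1 to 4 and 143.6, 146.1, 140.7 and 141.1 in Nova1 wt/wt replicates 1 to 4. It was lower in Nova1 hu/hu in 4 of 4 same-numbered pairs, but the ranges overlapped, and p was 0.226 unadjusted (edgeR, adjusted p = 1.0) and 0.164 with the pairs as a replicate block. *Gria2* had 71.1, 64.6, 70.1 and 73.7 TPM against 67.5, 61.6, 72.4 and 67.8, higher in 3 of 4 pairs (log2 fold change 0.06, SE 0.05, edgeR adjusted p = 1.0).

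In P21 cortex the changes ran from −0.09 (*Grik3*) to 0.07 (*Grik2*), with intervals between −0.21 and 0.19. *Grik3* had 26.9, 25.9, 29.0 and 28.1 TPM in Nova1 hu/hu and 28.5, 30.3, 31.7 and 26.8 in Nova1 wt/wt. The ranges overlapped, and the edgeR p was 0.111 unadjusted (adjusted p = 1.0). With the replicate number as a block its unadjusted p was 0.0474 and its adjusted p 0.867, the one member under 0.05 before adjustment in that fit.

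**Figure D4:**
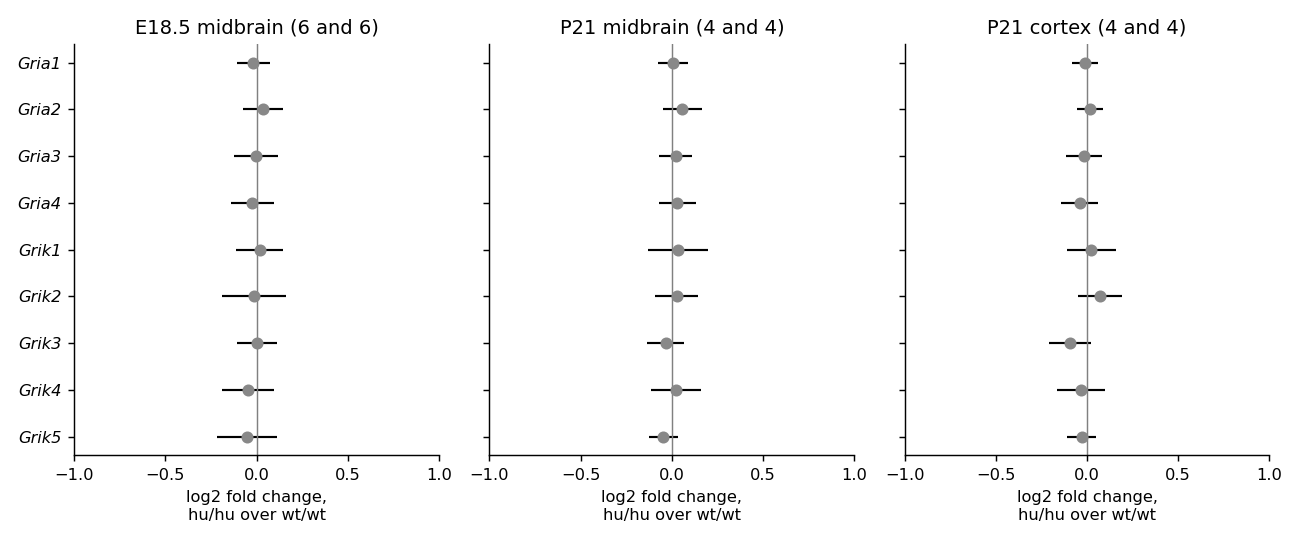
Fitted log2 fold change of each subunit, Nova1 hu/hu over Nova1 wt/wt (x axis), in each of the 3 tissues, with points for the estimate and bars for the 95% interval. Each of the 27 intervals includes 0, and the points lie between −0.09 and 0.07.

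The genotype difference itself was compared between ages and between regions as an interaction term. No member was called in either, with 0% of 16330 and of 16345 genes called and 303 and 373 genes with an unadjusted p under 0.05, none of them a member. The members' interaction terms lay between −0.03 and 0.07 for age, and between −0.07 and 0.04 for region. Their 95% intervals reached from −0.21 to 0.28 and from −0.25 to 0.22. DESeq2 called 0 genes in both.

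The auxiliary and partner proteins of these receptors were described from 6 lists with 35 genes, all of which were tested in each comparison. In the genotype comparisons 0 of 35 were called in any of the 3 tissues. Between ages, 9 of 15 AMPA receptor auxiliary subunits were called higher at P21 and 5 lower, with a list median of 0.28 beside −0.02 over all genes, of which 42.3% were called higher and 43.1% lower. *Cnih3*, a cornichon that slows receptor deactivation, had the largest rise, from 12.04 ± 1.45 TPM (n = 12) to 31.0 ± 2.94 (n = 8) and a log2 fold change of 1.56 (SE 0.07). *Shisa7* had the largest fall with −1.44 (SE 0.06), from 68.6 ± 7.39 to 21.9 ± 1.68 TPM. Of the TARPs, *Cacng2* (stargazin) was called higher (0.41, SE 0.06), *Cacng8* lower (−0.18, SE 0.08) and *Cacng3* higher (0.14, SE 0.06), the last with a slightly lower mean TPM at P21 (36.3 ± 3.80 against 38.0 ± 2.89).

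The assembly factors, endoplasmic reticulum proteins that build or modify AMPA receptors, were called higher at P21 in 4 of 4 cases, led by *Abhd6* (1.13, SE 0.07). The calls in these small lists, too, stand beside 42.3% of all genes called higher and 43.1% lower, so the sizes say more than the counts. Both kainate auxiliary subunits were called lower, *Neto2* with −1.49 (SE 0.05, from 95.3 ± 6.25 to 29.5 ± 2.03 TPM) and *Neto1* with −0.72 (SE 0.05). Of 6 scaffold and trafficking proteins 4 were higher and 2 lower, from *Nsf*, an ATPase that binds GluA2, with 1.72 (SE 0.03) to *Grip1*, a PDZ scaffold of GluA2 and GluA3, with −1.60 (SE 0.04). Of 5 secreted and presynaptic organizers 4 were higher, led by the neuronal pentraxin *Nptx1* (1.99, SE 0.04), and 1 lower, the pentraxin receptor *Nptxr* (−0.16, SE 0.05).

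The largest change with age among the 35 was that of *Adarb1*, the enzyme known to edit the glutamine codon of *Gria2*, *Grik1* and *Grik2* printed above. It had 17.96 to 25.2 TPM at E18.5 (median 21.6) and 132 to 151 in P21 midbrain (median 142), a log2 fold change of 2.90 (SE 0.05, adjusted p = 3.75e-24) or 7.47-fold. *Adar* was also higher (0.76, SE 0.04), and *Adarb2*, an editing-family member without known activity, was not called (0.03, SE 0.05). In cortex all 3 were called lower than in P21 midbrain, with *Adarb1* at 56.4 to 61.4 TPM and a log2 fold change of −1.20 (SE 0.03, adjusted p = 2.76e-20). Among the 3 tissues P21 midbrain had the most *Adarb1* and the least *Gria2* transcript. *Grik2* also had its lowest mean there (29.2 TPM, against 31.9 in cortex), while *Grik1* was lowest in cortex (8.13 TPM, against 12.9 in P21 midbrain). A link between the level of *Adarb1* and these levels was not tested.

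Between regions, 10 of 15 AMPA auxiliary subunits were called higher in cortex and 4 lower, with a list median of 0.30 beside −0.00036 over all genes, of which 37.6% were called higher and 37.9% lower. These shares also stand beside the counts of the other lists below. *Cacng3* had the largest difference, with 191 to 219.6 TPM in cortex and 28.7 to 41.0 in midbrain (log2 fold change 2.57, SE 0.05), and *Cacng8* had 1.72 (SE 0.05), whereas *Cacng2* differed by 0.15 (SE 0.04). The ratio of *Cacng3* to *Cacng2* was 2.76 to 3.33 in cortex libraries and 0.463 to 0.673 in P21 midbrain libraries. *Cacng5* was the furthest in the other direction (−1.06, SE 0.07). All 4 assembly factors were called higher, led by *Frrs1l* (0.70, SE 0.04).

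*Neto1* was 4.28-fold higher in cortex (log2 fold change 2.10, SE 0.05), with 66.9 to 82.2 TPM against 16.3 to 20.1, and *Neto2* was higher by 0.44 (SE 0.05). Their order was exchanged: *Neto1* had 1.82 to 2.02 times the TPM of *Neto2* in cortex and 0.505 to 0.704 times in midbrain. Of the scaffolds 4 were higher and 2 lower, from *Dlg4* (PSD-95) with 1.45 (SE 0.02) to *Grip2* with −1.15 (SE 0.05). Of the organizers 4 were higher, led by *Nptxr* (2.35, SE 0.03), and *C1ql2* was lower (−0.69, SE 0.08).

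**Figure D5:**
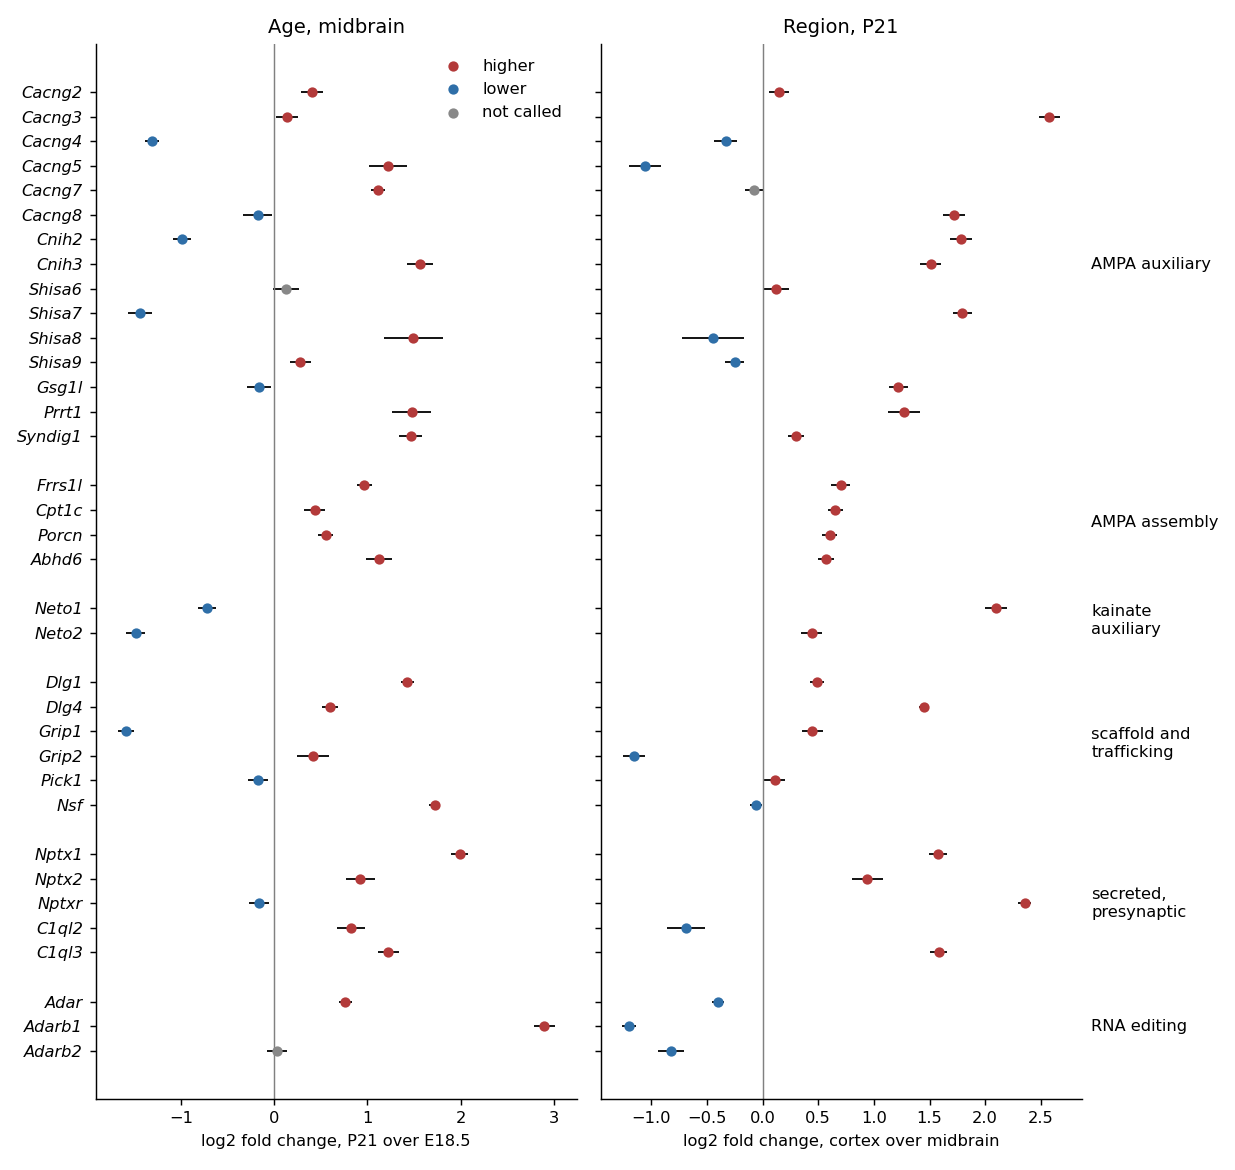
Fitted log2 fold change (x axis) of 35 auxiliary and partner genes for P21 over E18.5 in midbrain (left) and cortex over midbrain at P21 (right), grouped by list, with 95% intervals as bars and red, blue or grey points for called higher, called lower and not called. *Adarb1* lies at 2.90 on the left and at −1.20 on the right, and *Neto1* at −0.72 and 2.10.

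The genes whose log2 levels followed each member most closely over the 28 libraries were sought among 15540 genes with a mean of at least 1 TPM. The 28 points come from 3 tissues and are not independent, so the correlations are a description. For *Gria1* they were *Nelf*, *Pip4k2c* and *Nptx1* (r = 0.996 for each), for *Gria2* *Pgm2l1*, *Syt16* and *Celf1* (r = 0.991 to 0.992), for *Gria3* *Chn1* and *Hpcal4* (0.995 for each), and for *Gria4* *Esrrg*, *Tmem130* and *Appbp2* (0.986 to 0.988). For *Grik1* they were *Chd8*, *Ash2l* and *Myt1* (0.993 to 0.996), for *Grik2* *Lrrn3*, *Matr3* and *Zbtb6* (0.992 to 0.994), for *Grik3* *Arhgef7*, *Pip4k2b* and *Lsm14b* (0.975 to 0.979), and for *Grik5* *Palm*, *Adcy1* and *Wsb2* (at least 0.988). *Grik4*, the member that varied least between the tissues, had the weakest neighbours, *Actn4*, *Clcn2* and *Crocc* (0.850 to 0.886). Among the members themselves *Gria1* and *Gria3* were closest (r = 0.96), and *Gria1* and *Grik1* most opposed (r = −0.98).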

How the data were processed

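Polyadenylated RNA was sequenced by the authors as paired-end reads, aligned to mm10 with OLego and counted per gene with Quantas, and edgeR and mm10 are named in the submitters' processing notes. The authors deposited 1 table per library, which lists 23038 genes with their exon length, estimated count and RPKM. The estimated counts were not whole for 751 to 2715 genes per library and were rounded for the tests. The deposited RPKM values follow from counts, exon lengths and library totals (largest relative difference 2.27e-13) and were not used further. TPM was computed from the unrounded counts. The annotation version and whether counting used strand are not given in the sources used here.

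The main test was edgeR's quasi-likelihood test (R 4.3.3, edgeR 4.0.16, limma 3.58.1) with TMM factors and filterByExpr, over all genes kept, two-sided. A gene was called at p under 0.05 when its p adjusted by Benjamini-Hochberg was also under 0.1. Genotype effects were estimated per age and region, ages and regions over group means, and differences of the genotype effect as interaction terms. Fold changes are log2. SEs come from the fit, and SDs are over libraries. Replicates are numbered in the labels, which do not state that each is a separate mouse. The study calls its replicates biological and reports equal numbers of male-female pairs in its RNA-seq data. P-values measure the spread between these libraries. All 9 members passed the filter in every comparison.

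Same-numbered libraries of the genotypes deviated together, with correlations of 0.227 to 0.608 at E18.5 (median 0.533). At P21 they were 0.122 to 0.266 (median 0.202) for midbrain and 0.153 to 0.333 (median 0.253) for cortex. Differently numbered libraries had medians of −0.105, −0.034 and −0.095 in the same order, and reached 0.562, 0.215 and 0.101. Deviations were taken from group means, which pushes these medians below 0 when same-numbered libraries agree, so their sign adds nothing. The numbers were taken to pair the genotypes, although the ranges of same-numbered and differently numbered libraries overlapped at E18.5 and in P21 midbrain. The main genotype tests, with their SEs and intervals, did not use this pairing, and the fits with a replicate block did. Same-numbered libraries of the regions correlated at −0.19 to 0.13 and were not paired. No libraries agreed within sampling noise.

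The members, the 6 lists and the markers were chosen with earlier results of these data known. All 9 members are named in each comparison. Of each list, the gene with the largest rise and fall among those called is named for age and region, and *Neto1*, *Neto2*, *Cacng2*, *Cacng3*, *Cacng8* and *Adarb1* in both. For each member the 3 genes with the highest Pearson correlation of log2(TPM + 0.1) are named, except 1 gene that, like 1 further list of genes, is not reported here. The remaining genes of the lists with 2 or 3 genes were added after their values were seen. Alternatives were RLE factors, library totals only, DESeq2 1.42.0, a threshold of 0.05 on the adjusted p, no filter on low counts, a minimum of 10 counts per library, all 28 libraries in one fit, the replicate number as a block, each library left out in turn, other units for levels, and a pseudocount of 1. GENCODE M21 exon lengths were added after seeing the data. *Shisa8*, *Syndig1* and *Frrs1l* carry older symbols in the tables and were matched by Entrez identifier.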

Additional observations from a re-analysis of the deposited data

Results flagged for a closer look

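In 6 of 54 combinations of subunit and group, 1 library stood apart from the others of its group by Dixon's criterion for the gap to the nearest value. Chance alone flags about 1 in 20 such groups. *Gria1* reached 96.8 TPM in Nova1 wt/wt replicate 3 at E18.5, where the other 5 libraries had 78.9 to 84.9, and *Gria2* 184 TPM in the same library, where the others had 157 to 166. *Grik1* reached 36.3 TPM in Nova1 hu/hu replicate 3 at E18.5, against 30.7 to 31.9. At P21, *Gria2* was lowest in Nova1 hu/hu cortex replicate 2 with 176 TPM against 180.2 to 180.3, *Gria3* in Nova1 wt/wt cortex replicate 2 with 63.5 against 69.5 to 69.9, and *Gria4* in Nova1 wt/wt midbrain replicate 2 with 71.7 against 81.5 to 83.2. The causes were not tested. Leaving out any 1 of these libraries called no member between genotypes.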

How the results depend on the processing

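The counts of members called moved little. Between genotypes and in both interaction terms, 0 members were called under every alternative run. By age 7 members were called with library totals only and 9 with no filter, with all 28 libraries in one fit or with the replicate block, against 8, and by region 9 under every alternative run. Leaving out each library gave 8 to 9 members called by age (3 to 4 higher, 5 to 5 lower), 9 to 9 by region (7 to 7 higher, 2 to 2 lower) and 0 to 0 elsewhere. Over all genes, the genotype comparison in P21 midbrain called 1 gene with DESeq2 and 4 with the replicate block in place of 0. In the age comparison the numbers do not mark shared mice, so that block is a check only. It changed the call of *Grik4* (log2 fold change 0.13) and of no other member. *Grik4* was also called with no filter (0.11), with all 28 libraries (0.11) and when E18.5 hu/hu replicate 2 (0.11), E18.5 wt/wt replicate 3 (0.11) or 5 (0.11) or P21 midbrain wt/wt replicate 1 (0.13) was left out.

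Signs turned only for effects near 0. With library totals only, the age change was −0.049 for *Gria4* and −0.058 for *Grik4*. The genotype change at E18.5 was 0.0050 for *Gria1*, 0.020 for *Gria3* and 0.0072 for *Grik2*, and in P21 midbrain −0.016 for *Gria1*, −0.0017 for *Gria3* and −0.00044 for *Grik4*. The age interaction was −0.021 for *Gria1*, −0.024 for *Gria2*, −0.022 for *Gria3*, −0.030 for *Grik1*, −0.0043 for *Grik2* and −0.042 for *Grik5*, and the region interaction 0.0025 for *Grik1*. With all 28 libraries *Grik3* at E18.5 was −0.0010. Left-out libraries turned the sign of 6 genotype changes at E18.5: *Gria1* (−0.027 to 0.016), *Gria3* (−0.035 to 0.017), *Gria4* (−0.051 to 0.00024), *Grik1* (−0.018 to 0.057), *Grik2* (−0.066 to 0.031) and *Grik3* (−0.020 to 0.027). In P21 midbrain they turned *Gria1* (−0.017 to 0.027), *Gria4* (−0.013 to 0.049), *Grik1* (−0.059 to 0.087), *Grik2* (−0.018 to 0.055) and *Grik4* (−0.032 to 0.062), and in P21 cortex *Gria1* (−0.027 to 0.012), *Gria2* (−0.0062 to 0.037), *Gria3* (−0.049 to 0.0098) and *Grik4* (−0.079 to 0.019). For the age interaction these were *Gria1* (−0.0051 to 0.048), *Gria2* (−0.012 to 0.064), *Grik1* (−0.074 to 0.071), *Grik2* (−0.0024 to 0.094) and *Grik5* (−0.032 to 0.057), and for the region interaction *Gria1* (−0.038 to 0.0035), *Grik1* (−0.064 to 0.083), *Grik4* (−0.10 to 0.0013) and *Grik5* (−0.0069 to 0.041). None of these values was called, and the cause was not tested. With a pseudocount of 1, 2 of the 3 nearest genes were shared for *Gria1*, *Gria3* and *Grik1* and all 3 for the other members.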
